A study of Homo sapiens with 4 samples.

Results

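TGFBI, an extracellular matrix protein named for its induction by transforming growth factor beta (TGF-beta), was examined together with 9 genes of the TGF-beta pathway. The 10 genes were taken by gene name from a deposited count table of 60544 genes. They are the ligands TGFB1 and TGFB2, the receptors TGFBR1 and TGFBR2, the SMAD proteins SMAD2, SMAD3, SMAD4 and SMAD7, the corepressor SKIL, and TGFBI itself. All 10 passed the low-count filter that kept 16802 genes for testing. The choice drew on earlier results of the same comparison, in which TGFBI had fallen strongly. The differences of these 10 genes between the groups are therefore given as a description. Where calls of the test over all genes are stated for them, they describe these libraries and support nothing further.

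The libraries came from PC3, an established line of human prostate carcinoma cells, grown in RPMI-1640 with fetal bovine serum, and poly(A) RNA was sequenced. The shNC group is the control and the sh812 group was read as the METTL3 knockdown, each with 2 libraries. METTL3 is the catalytic subunit of the enzyme complex that places N6-methyladenosine on messenger RNA. The labels name 1 knockdown construct, so effects of METTL3 loss and of that hairpin on other transcripts cannot be told apart. No ligand or inhibitor of the pathway is named in the labels. They do not say whether the replicates were separate cultures, so the spread between these libraries may be technical. The p-values measure that spread, pooled in part across genes.

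In the TGF-beta pathway, secreted ligand is held in a latent complex in the matrix until it is released. Active ligand brings the type II receptor TGFBR2 and the type I receptor TGFBR1 together, and TGFBR1 phosphorylates SMAD2 and SMAD3. These join SMAD4 and move to the nucleus to switch genes on or off. SMAD7 and SKIL are inhibitors that the pathway itself induces, so they form negative feedback. In prostate carcinoma the pathway is known both for growth arrest and for matrix production and invasion.

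Total counts ran from 31450648 to 37041330 per library. As a check of the labels, METTL3 counts were 1682 and 1379 in shNC and 269 and 313 in sh812. All 8 epithelial and basal-type carcinoma markers were detected in every library. In edgeR 4 of them were called higher in sh812 and 0 lower, against 5.43% and 5.42% of all genes tested. The 4 called were EPCAM at 136% of its shNC level, KRT18 at 123%, CAV1 at 129% and the scarcer CDH1 at 148%. The rest were not called, with KRT8 at 109.3%, KRT19 at 107.3%, CD44 at 90.65% and VIM at 88.42%. For CD44 and VIM both sh812 libraries lay below both shNC libraries. Of the 7 markers of androgen-driven prostate cells, KLK2, KLK3 and KLK4 had no count in any library, and 2 of the 4 tested were called lower. Leukocyte markers summed to 1.05 to 1.5 CPM (counts scaled to one common library size), and the 8 fibroblast markers to 55.7 and 58.7 CPM in shNC and 50.1 and 56.8 CPM in sh812. The fibroblast list had 1 higher and 1 lower call. The 5 endothelial markers summed to 42.0 to 51.1 CPM. Within that sum PECAM1 was called higher (151% of shNC) and KDR lower (61.9%), while CDH5 and VWF had 6 counts or fewer in every library. The part of these markers in the results was not tested.

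The target and both inhibitors were lower in sh812, while TGFB1, the receptors and the signal-carrying SMADs lay close to control. TGFBI stood at 32.7% of its control level, SMAD7 at 56.1% and SKIL at 78.4%. The other 7 genes stood between 87.7% (TGFB2) and 107.9% (TGFBR2). The edgeR test over all genes, with Benjamini-Hochberg adjustment, called 3 of the 10 at an adjusted p under 0.05, all lower, against 10.8% of the genes tested, and 5.42% on the lower side. Both sh812 libraries lay below both shNC libraries in 5 of the 10 (27.4% of all genes tested) and above them in 3 (26.2%). Since this comparison chose the genes, nothing is read from these shares. None was called higher in edgeR, DESeq2 or limma-voom, and 0 were higher and 4 lower at an unadjusted p under 0.05 in edgeR. Of all 16802 genes tested, 1995 were higher and 2166 lower at that unadjusted threshold. In cultured cells, fewer cells that express a gene and less RNA per cell cannot be told apart.

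**Figure D1:**
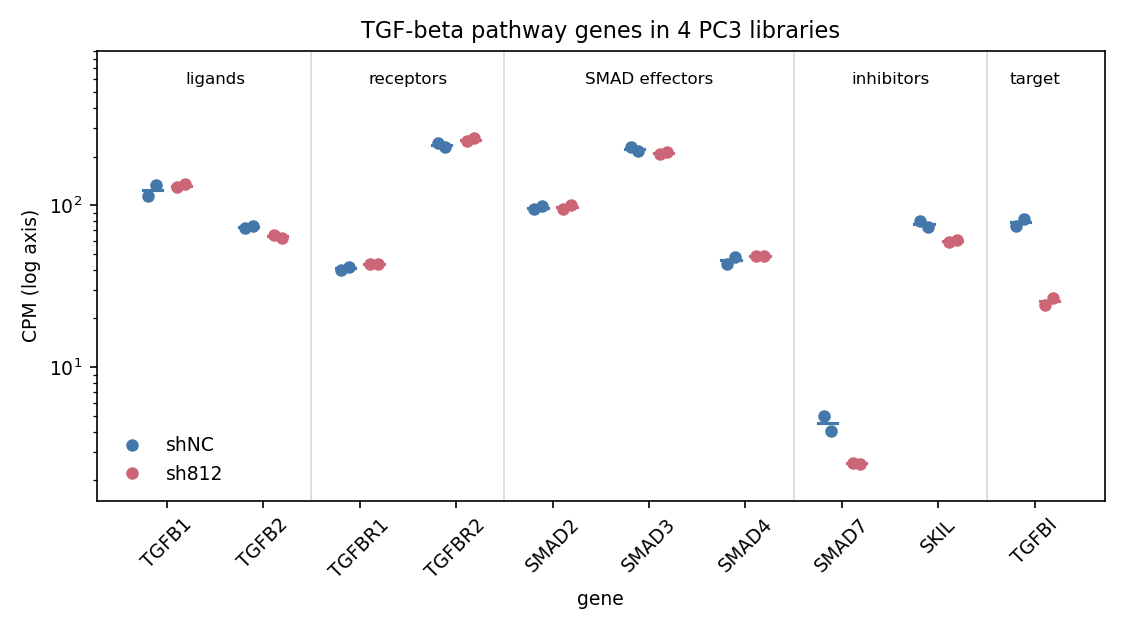
CPM of the 10 genes in each library on a log axis, grouped by role, with a point per library and a bar at the mean of the 2 libraries of a group (shNC blue, sh812 red). TGFBI falls from 74.7 and 82.0 CPM to 24.4 and 26.9 CPM, and the receptors and SMAD effectors stay near their control level.

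Of the ligands, TGFB1, the main TGF-beta isoform of many tissues, had 114.1 and 132.7 CPM in shNC and 128.9 and 134.7 CPM in sh812. The groups overlapped, and the shNC libraries differed more from each other than the group means did. Its log2 fold change was 0.096 (SE 0.069), and it turned to -0.011 without shNC replicate 1. Without shNC replicate 2 it was 0.214 and called higher (adjusted p = 0.0047 in edgeR). TGFB2, a second ligand isoform, had 72.2 and 74.4 CPM in shNC and 65.6 and 63.0 CPM in sh812. Both sh812 libraries were below both shNC libraries, with a log2 fold change of -0.19 (SE 0.07) that was not called. It was called with library size alone (-0.23) and without shNC replicate 1. The TGFB2 to TGFB1 ratio of counts, which does not depend on scaling between libraries, was 0.633 and 0.561 in shNC and 0.509 and 0.468 in sh812. This ratio was thus lower in both sh812 libraries than in both shNC libraries. Neither gene was called, and 53.6% of single genes tested had groups that did not overlap. The share for ratios was not computed. The annotation places a noncoding transcript, TGFB2-OT1, on the same strand over 26.6% of the exonic bases of TGFB2, so part of its count can be shared.

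The signalling receptors were slightly above control. TGFBR1, the kinase that phosphorylates the SMADs, had 40.1 and 41.8 CPM in shNC and 43.2 and 43.5 CPM in sh812. Its log2 fold change was 0.084 (SE 0.081). TGFBR2, which binds ligand first, had 241.9 and 230.3 CPM in shNC and 250.2 and 259.0 CPM in sh812, a log2 fold change of 0.11 (SE 0.06). The groups did not overlap for either receptor, as for 53.6% of all genes tested. The ratio of TGFBR2 to TGFBR1 counts was 6.04 and 5.51 in shNC and 5.79 and 5.96 in sh812, and so overlapped.

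The SMAD effectors were also close to control. SMAD2 had 94.9 and 98.5 CPM in shNC and 95.0 and 99.9 CPM in sh812. These ranges overlapped, and its log2 fold change of 0.011 (SE 0.066) changed sign with library size alone (-0.033). SMAD3, the other receptor-activated SMAD, had 229.8 and 214.9 CPM in shNC and 207.7 and 213.5 CPM in sh812. The groups were apart by a narrow margin, and its log2 fold change of -0.079 (SE 0.060) was smaller than the difference between the shNC replicates. SMAD4, the common partner of both, had 43.4 and 47.9 CPM in shNC and 48.8 CPM in each sh812 library. Its log2 fold change was 0.096 (SE 0.080), again smaller than the shNC replicate difference. Over the 7 genes from TGFB1 to SMAD4 that were not called, the 95% intervals of the log2 fold change ran from -0.33 to 0.26. Changes to under 79.4% or over 120% of the control level lie outside these intervals.

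**Figure D2:**
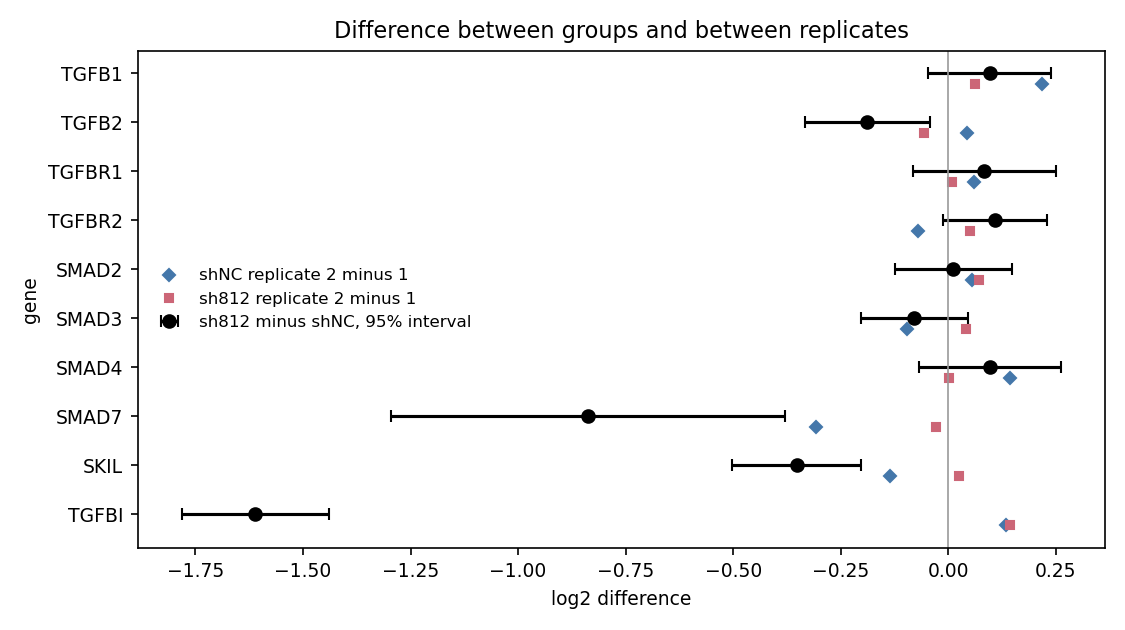
Log2 difference of sh812 minus shNC for each gene with its 95% interval (black), beside the log2 difference between the 2 libraries of shNC (blue diamonds) and of sh812 (red squares). The intervals of TGFBI, SMAD7 and SKIL lie below the replicate differences, and those of TGFB1, the receptors and SMAD2, SMAD3 and SMAD4 include 0. That of TGFB2, from -0.33 to -0.044, lies below 0 but covers its sh812 replicate difference of -0.057.

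Both inhibitors were lower. SMAD7, which blocks the receptor and recruits ubiquitin ligases to it, was the least abundant of the 10 genes, with 190 and 128 counts in shNC and 90 in each sh812 library. These counts correspond to 5.01 and 4.05 CPM in shNC and 2.56 and 2.52 CPM in sh812, with no overlap. Its log2 fold change was -0.84 (SE 0.22), and the gap between the shNC replicates was 0.31 on the same scale. Without shNC replicate 1 it was -0.67 and not called, and it was also not called without either sh812 library (-0.85 and -0.82). SKIL, also known as SnoN, which represses SMAD target genes, had 80.3 and 73.1 CPM in shNC and 59.6 and 60.6 CPM in sh812. The groups were well apart, and its log2 fold change of -0.35 (SE 0.07) exceeded the largest replicate difference of 0.14. It was not called without sh812 replicate 1 (-0.34) or without sh812 replicate 2 (-0.37). Set against SMAD4 within each library, the SMAD7 count ratio was 0.115 and 0.0844 in shNC and 0.0526 and 0.0515 in sh812. The SKIL to SMAD4 ratio was 1.85 and 1.52 in shNC and 1.22 and 1.24 in sh812. Both ratios were lower in sh812 without overlap. They reuse the counts above, and SMAD4 itself stood at 106.8% of its control level, which lowers both ratios in sh812.

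TGFBI lies on the plus strand of chromosome 5, at chr5:136028895-136063818 in GRCh38 (GENCODE 29), and no exon of another gene overlaps it there. It had 2834 and 2592 counts in shNC and 855 and 962 in sh812. The levels were 74.7 and 82.0 CPM in shNC and 24.4 and 26.9 CPM in sh812, far apart and with close replicates. The control mean was 3.06 times the sh812 mean. The log2 fold change was -1.61 (SE 0.08), against replicate differences of 0.13 in shNC and 0.14 in sh812. When all 16802 tested genes were ordered from the most negative fold change, TGFBI stood at rank 112, SMAD7 at 568 and SKIL at 2229. Among genes averaging 5 CPM or more, TGFBI stood at rank 3 and SKIL at 545. Per count of TGFB1, TGFBI gave 0.655 and 0.618 in shNC and 0.189 and 0.200 in sh812.

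Promoter windows of the 3 called genes were searched for a short SMAD-type motif. The letters come from RefSeq (GRCh38.p14), in which all 10 genes matched a window of 300 bases around a start, and are printed 5′ to 3′ on the strand of the gene. Capitals mark CAGAC, the short motif bound by SMAD3 and SMAD4, or its reverse complement GTCTG. For TGFBI and SKIL, the stretch shown is the part upstream of the annotated exons, at chr5:136028738-136028894 on the plus strand and chr3:170357465-170357677 on the plus strand. For SMAD7, whose window is exonic in GENCODE 29, only the sites at chr18:48951166-48951194 and chr18:48951077-48951105 on the minus strand are shown, at 217 and 128 bases before the RefSeq start. The start of that window lies 1087 bases from the nearest principal transcript start, inside the gene.
TGFBI: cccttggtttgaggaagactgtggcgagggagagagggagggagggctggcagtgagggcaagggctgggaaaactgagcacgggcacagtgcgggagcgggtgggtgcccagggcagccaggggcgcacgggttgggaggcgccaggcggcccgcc
SKIL: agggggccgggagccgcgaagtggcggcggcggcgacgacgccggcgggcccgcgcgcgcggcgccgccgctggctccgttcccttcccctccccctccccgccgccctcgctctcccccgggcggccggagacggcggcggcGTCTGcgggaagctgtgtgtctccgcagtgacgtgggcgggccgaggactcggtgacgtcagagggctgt
SMAD7 site 1: gccggacgccccCAGACctctgaggttcg
SMAD7 site 2: ttcttattttgcCAGACgtctcatgcggg

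The TGFBI window held no CAGAC, the SKIL window held 1 and the SMAD7 window held 2, counted on both strands. Of the 10 genes, 5 had at least 1 match, and 45.2% of 35097 RefSeq windows of that length did. TGFB2 and TGFBR1 held 2 matches each and SMAD3 held 1, so the motif did not separate called from uncalled genes in these windows. The windows are not equally near the main promoter. The RefSeq start lies 899 bases from the nearest principal transcript start for TGFB2 and 243 for SMAD3. It lies 93 bases away for TGFBI, 11 for SKIL and 6 for TGFBR1. The longer palindrome GTCTAGAC, found in 0.202% of windows, was in none of the 10. The AP-1 motif TGANTCA, found in 7.71% of windows, was in TGFBR2 alone. None of these motifs overlapped another in these windows. A match describes letters only, and no match says nothing of sites outside the window.

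Compared per kilobase of exon, the order of levels in shNC ran from TGFBR2 at 50.2 ± 1.74 CPM per kilobase (RPKM, SD, n = 2) down to SMAD7 at 0.900 ± 0.135. TGFB1 followed TGFBR2 at 38.1 RPKM, then SMAD3 at 24.4, TGFB2 at 14.2, TGFBI at 10.0, SKIL at 9.86, TGFBR1 at 5.98, SMAD4 at 3.48 and SMAD2 at 2.66. In this order TGFBI and SKIL overlapped, and every other pair of neighbours was apart in both libraries. In sh812 TGFBI stood at 3.28 RPKM, below SKIL at 7.72, TGFBR1 at 6.34 and SMAD4 at 3.72, while the other 9 genes kept their order. These levels use the union of all annotated exons as length, which understates a gene with long unused exons.

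The wider pathway was described with 112 other genes in 4 lists by role, of which 105 were tested. In edgeR, 26 were lower and 4 higher at an adjusted p under 0.05, against 910 and 912 of all genes tested (5.42% and 5.43%). The list of ligand and ligand activation genes and the list of TGF-beta-induced target genes held 22 of the 26 lower calls. Without sh812 replicate 1, 8 of the 112 were called, and without sh812 replicate 2, 11 were called. The 30 called genes make up 28.6% of those tested. The lists were drawn up with earlier results of these data known, and the median level of their genes was 48.7 CPM against 15.8 CPM over all genes tested, so nothing is read from that share.

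Ligand and ligand activation genes showed 7 lower and 0 higher calls among 16 tested, with a median log2 fold change of -0.255 against -0.0056 over all genes tested. DESeq2 and limma-voom also gave 7 lower and 0 higher, and at an unadjusted p under 0.05 in edgeR 10 were lower and 1 higher. Over all 16802 genes tested, 2166 were lower and 1995 higher at that unadjusted threshold. The list's median was -0.205 with the length trend removed, -0.186 without shNC replicate 1 and -0.3 with library size alone. Over tested genes with a known length, exon length and log2 fold change had a Spearman correlation of -0.199. Without sh812 replicate 1 the list had 1 lower call and without sh812 replicate 2 it had 2, with LTBP2 called in both. LTBP1 was not called without sh812 replicate 1, and LTBP4, THBS1, ITGAV, INHBB and INHBA were not called without either sh812 library. LTBP2, one of the latent TGF-beta binding proteins, fell from 31.0 and 30.6 CPM to 18.4 and 21.3 CPM (log2 fold change -0.63, SE 0.10, adjusted p = 0.000157 in edgeR). LTBP1, which ties latent TGF-beta to the matrix, fell from 347.2 and 370.8 CPM to 268.8 and 282.2 CPM (-0.38, SE 0.06, adjusted p = 0.000123 in edgeR). LTBP4 fell by 0.31 on the log2 scale and THBS1, thrombospondin 1, an activator of latent TGF-beta, fell by 0.25. ITGAV, the integrin alpha v subunit of the receptors that release TGF-beta, fell by 0.29, but by only 0.17 and without a call when shNC replicate 1 was left out. The activin subunit genes INHBB and INHBA fell by 0.22 and 0.18, with adjusted p of 0.0158 and 0.0475 in edgeR, and INHBA was not called with the length trend removed or with RLE factors. TGFB3, the remaining TGF-beta ligand, had 10.7 and 10.6 CPM in shNC and 9.77 and 12.2 CPM in sh812 and was not called (0.044, interval -0.24 to 0.33, adjusted p = 0.892 in edgeR). Its sign turned with library size alone.

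Among other receptors and co-receptors, 2 of 12 tested genes were lower and 0 higher, with a median log2 fold change of -0.054. DESeq2 and limma-voom gave the same counts, and at an unadjusted p under 0.05 in edgeR 4 were lower and 0 higher. The unadjusted counts over all 16802 genes tested were 2166 lower and 1995 higher. BMPR2, a type II receptor for bone morphogenetic proteins, fell by 0.29 (SE 0.08, adjusted p = 0.0186 in edgeR). CD109, a co-receptor that dampens TGF-beta signalling, fell by 0.24 (SE 0.06, adjusted p = 0.0157 in edgeR). Neither was called once the trend on transcript length was removed, and the list had 0 calls without either sh812 library. TGFBR3, betaglycan, which presents ligand, had 11.2 and 9.80 CPM in shNC and 10.8 and 9.84 CPM in sh812 (-0.032, interval -0.31 to 0.25, adjusted p = 0.921 in edgeR). Its groups overlapped, and the sign turned with the length trend removed.

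Among the other SMADs and signalling regulators, 2 of 29 tested genes were lower and 0 higher, close to the share over all genes, with a median of -0.066. At an unadjusted p under 0.05 in edgeR 8 were lower and 2 higher, against 2166 and 1995 of all 16802 genes tested. DESeq2 and limma-voom each called 3 lower and 0 higher. The list had 0 calls without either sh812 library, 2 lower and 2 higher without shNC replicate 1, and 6 lower and 1 higher without shNC replicate 2. With the length trend removed it had 3 lower and 1 higher. PPP1R15A, a phosphatase subunit that can act with SMAD7 on the receptor, fell by 0.31 (SE 0.07, adjusted p = 0.00666 in edgeR). ZFYVE16, an endosomal SMAD anchor, fell by 0.43, but by only 0.18 and without a call when shNC replicate 1 was left out. The feedback gene SMAD6 and the corepressor SKI, relatives of SMAD7 and SKIL, were not called. SMAD6 had a log2 fold change of -0.10 (interval -0.32 to 0.12, adjusted p = 0.612 in edgeR) and SKI one of 0.060 (interval -0.064 to 0.18, adjusted p = 0.598 in edgeR).

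TGF-beta-induced target genes had 15 lower and 4 higher calls among 48 tested, and a median log2 fold change of -0.19. COL3A1, a fibrillar collagen, was scarce and fell from 111 and 125 counts to 45 and 40 (log2 fold change -1.51, SE 0.29, adjusted p = 0.00131 in edgeR). ITGB1, the integrin beta 1 subunit, was the most abundant of the called targets named here, falling from 2837 ± 122 CPM to 1915 ± 6.43 CPM (SD, n = 2). The matricellular genes CCN1 and CCN2 fell by 0.43 and 0.39, and the matrix genes TNC and FN1 by 0.36 and 0.32. CCN2 was not called without sh812 replicate 1 (adjusted p = 0.147 in edgeR) or replicate 2 (0.0785), while CCN1 and TNC were called in both fits. PTHLH, the parathyroid hormone-like hormone known from bone metastasis, fell by 0.62, and SNAI2, a transcription factor of epithelial-mesenchymal transition, by 0.42. FN1 and SNAI2 were not called without sh812 replicate 1. The 4 genes that rose, named after their values were seen, were COL1A2 (0.50), IL11 (0.41), ITGA2 (0.31) and ID1 (0.22). IL11 lay near the threshold (adjusted p = 0.0485 in edgeR), and its shNC replicates differed by 0.396 on the log2 scale. With library size alone, 23 were lower and 3 higher, in DESeq2 13 and 3, and with the length trend removed 15 and 2. Without sh812 replicate 1, 7 were lower and 0 higher, and without sh812 replicate 2, 9 were lower and 0 higher.

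**Figure D3:**
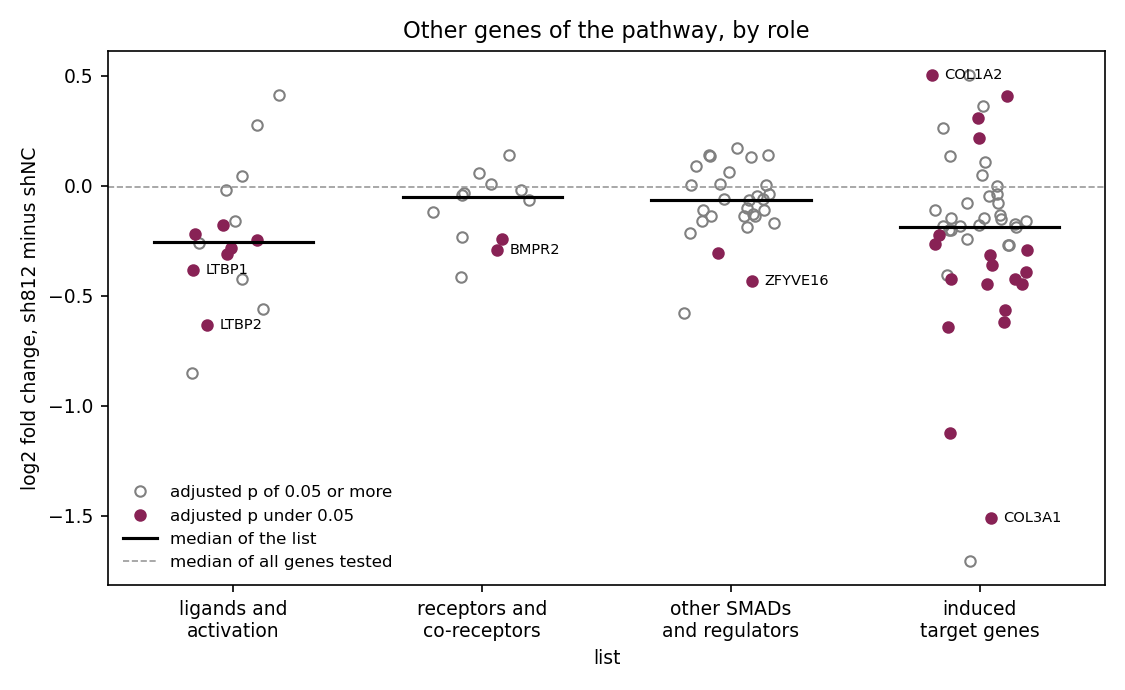
Log2 fold change of sh812 minus shNC for the 105 tested genes of the wider lists, with a point per gene (filled at an adjusted p under 0.05 in edgeR), a bar at the median of each list and a dashed line at the median of all genes tested. The medians are -0.255, -0.054, -0.066 and -0.19 from left to right, and COL3A1, at -1.51, lies lowest among the filled points.

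The genes whose pattern over the 4 libraries was most like that of TGFBI were sought among the 10838 others that averaged 5 CPM or more. Likeness was the Euclidean distance between log2(CPM + 0.5) values centred on each gene's mean. The nearest 3 were SPOCK1 at 0.380, IL6 at 0.398 and IGFBP3 at 0.457. With 4 libraries in 2 groups, this measure mostly ranks genes by the size of the same fall. SPOCK1, a secreted proteoglycan, had 38.8 and 35.7 CPM in shNC and 15.3 and 14.5 CPM in sh812. IGFBP3, which binds insulin-like growth factors, was the most abundant of the 3, with 639.3 and 687.4 CPM in shNC and 272.9 and 328.0 CPM in sh812. IL6, an inflammatory cytokine, went from 50.8 CPM in both shNC libraries to 21.8 and 18.0 CPM. On the opposite strand, exons of AC073072.1 overlap 20.7% of the exonic bases of IL6 and those of STEAP1B overlap 2.22%.

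**Figure D4:**
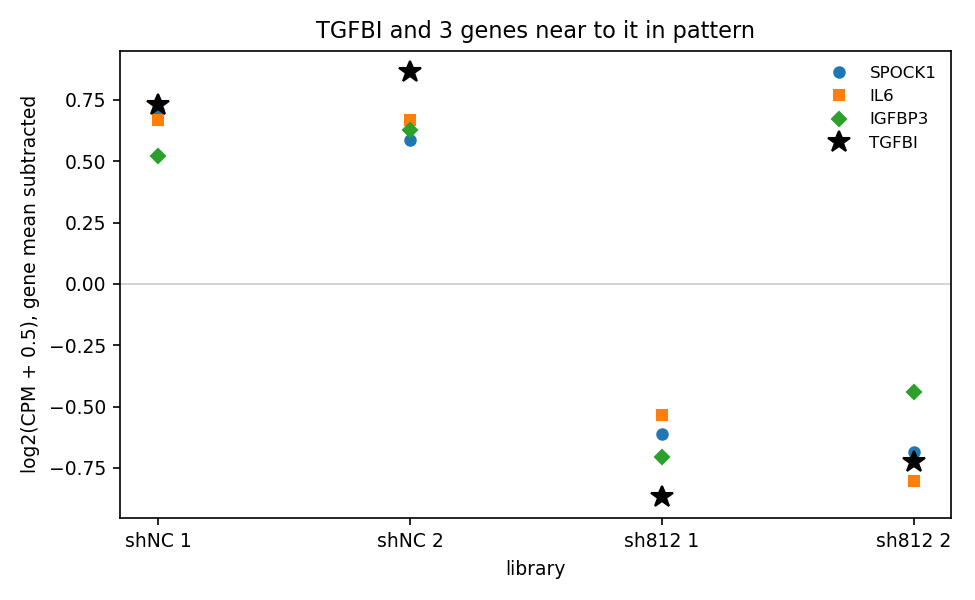
Log2(CPM + 0.5) of TGFBI (star) and its 3 nearest genes in each of the 4 libraries, with each gene's mean subtracted. All 4 genes lie above their mean in both shNC libraries and below it in both sh812 libraries.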

How the data were processed

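Poly(A) RNA libraries of 2 shNC and 2 sh812 PC3 samples were analysed from the authors' deposited table of raw counts per gene. Per the labels' protocols, the libraries keep strand and were read as pairs of 150 bases. The submitters' processing notes name fastp, STAR 2.7.1a, featureCounts, DESeq2 and hg38. The annotation release and strand setting of the counting are not given in the sources used here, so overlapping genes can share counts. Each replicate pair differed beyond sampling noise (chi-square per gene 8.43 in shNC and 4.51 in sh812), so libraries were counted separately. Here, edgeR 4.0.16 (filterByExpr, TMM, quasi-likelihood test, no covariate) was fitted to all 4 libraries in R 4.3.3. P-values were adjusted by Benjamini-Hochberg over 16802 genes, and a call is an adjusted p under 0.05. CPM use TMM-adjusted library sizes, SE comes from the F statistic, and the fitted prior count was 0.125. The test pulls each gene's spread towards a trend over all tested genes, with 22.5 prior degrees of freedom. A gene's p-value and SE thus do not rest on its own 4 libraries alone. Positions and exon lengths come from GENCODE 29.

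The genes and lists were chosen with earlier results of these data known. Named genes are METTL3, the 10 pathway genes, up to 8 called genes per list by p, TGFB3, TGFBR3, SMAD6, SKI and CCN2, and the 5 genes nearest to TGFBI. A few genes this covers are not reported here. Promoter windows were those nearest to a principal transcript start. Alternatives were RLE, upper quartile and no scaling factors, no filter, a mean CPM of at least 1, DESeq2 1.42.0, limma-voom (limma 3.58.1), the replicate number as a block, each library's lowess trend on exon length removed (span 0.3), a prior count of 2 and each library left out. The test was tried on simulated counts with 16441 genes tested. It found 92.0% of true changes of log2 1 and 70.0% of those of log2 0.5, and 9 of its 171 calls were false. The simulation changed 200 genes, all with a mean above 1 CPM, and drew counts with the spread fitted to these 4 libraries. It does not cover spread that these replicates do not show, so these rates are not those of the calls made here.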

Additional observations from a re-analysis of the deposited data

How the results depend on the processing

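TGFBI was called lower in each of its 14 alternatives, with log2 fold changes from -1.68 to -1.54. SKIL and SMAD7 were called in each alternative on all 4 libraries, and SMAD7, at a mean of 2.54 CPM in sh812, has the least depth of the pathway genes. Leaving out a library leaves 1 sample in a group, which is assumed to vary like the other group. In these fits the called genes ran from 313 without sh812 replicate 1 to 3326 without shNC replicate 2, and 424 without sh812 replicate 2, against 1822. The pathway genes called ran from 1 to 4, and the wider pathway genes from 8 without sh812 replicate 1 to 41 without shNC replicate 2, with 11 without sh812 replicate 2. With library size alone, 561 genes were higher and 1328 lower (29.7% higher against 50.1%), and the median of all genes was -0.050.

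Sign changes arose in 4 genes that were not called on all 4 libraries and in a list's median. With library size alone, SMAD2 was -0.033 and TGFB3 -0.00096, and with the length trend removed TGFBR3 was 0.038. Without shNC replicate 1, TGFB1 was -0.011, SMAD2 -0.017, TGFBR3 0.070 and the receptor list's median 0.060. Without sh812 replicate 2, SMAD2 was -0.025, TGFB3 -0.13 and TGFBR3 0.032. Over the libraries left out, the highest or lowest values on the other side were 0.214 (TGFB1, called higher there without shNC replicate 2), 0.047 (SMAD2), 0.195 (TGFB3), -0.12 (TGFBR3) and -0.151 (receptor median). The cause was not tested. The replicate numbers gave no sign of pairing (correlation of same-numbered deviations 0.0164). With the replicate block, 2001 genes, 3 pathway genes and 34 wider pathway genes were called, and TGFBI was -1.61.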

Other observations

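Beyond the collagens named in the report, 3 further collagen genes of the target list were called lower in edgeR, and they were chosen after their values were seen. COL4A1 and COL4A2, the main chains of basement membrane collagen, fell by 0.27 and 0.29 on the log2 scale (adjusted p = 0.0294 and 0.00472 in edgeR). COL5A1, a minor fibrillar collagen, fell by 0.64, from 11.1 and 12.2 CPM to 7.89 and 7.01 CPM (adjusted p = 0.00397 in edgeR). COL1A1 had 1426 and 1246 counts in shNC and 1029 and 1234 in sh812 and was not called (-0.27, adjusted p = 0.0589 in edgeR). Its partner chain COL1A2 rose from 9.49 and 9.55 CPM to 13.6 and 13.4 CPM (0.50, adjusted p = 0.0116 in edgeR). The cell cycle inhibitor CDKN2B fell by 0.23 (adjusted p = 0.0399 in edgeR) and ID2 by 0.45 (adjusted p = 0.00971 in edgeR), while ID1 rose from 398.1 and 424.4 CPM to 463.2 and 493.4 CPM.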
